A study of Rattus norvegicus with 36 samples.

Results

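The 7 genes described here encode xenobiotic efflux pumps of the liver. They are Abcc3, Abcc4 and Abcc1 (basolateral), Abcc2, Abcb1a and Abcg2 (canalicular), and Abcc6, a further basolateral pump. They were chosen by name with earlier results of these data known, so counts of called genes among them are no test. Every probe set whose platform annotation carried 1 of these symbols and no other was taken. This gave 8 of the 31042 probe sets tested, 1 per gene and 2 for Abcb1a. Each gene stands by its brightest probe set, as one of 14217 genes with a symbol of their own.

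Hepatocytes rid themselves of drugs, drug conjugates and bile constituents through ATP-binding cassette pumps. Basolateral pumps, on the membrane facing the blood, return conjugates to the circulation for excretion by the kidney. Canalicular pumps, on the membrane that lines the bile canaliculus, secrete them into bile. Several of the pump genes are known targets of CAR and PXR, nuclear receptors that sense foreign compounds and also induce cytochromes P450 and conjugating enzymes. NRF2, a regulator of antioxidant genes, and AhR, the receptor for planar aromatic compounds, are known to act on some of them too.

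Decabromodiphenyl ether (decaBDE) is a flame retardant rich in bromine. It was given by gavage, in corn oil at 5 ml/kg, to male Harlan Sprague Dawley rats, whose liver RNA was put on the arrays. Dosing began at 7 weeks of age and went on for 5 consecutive days, and RNA came from the left lobe 1 day later. The 6 groups of 6 arrays were corn oil vehicle, then daily decaBDE at 0.1 mg/kg, at 0.959 mg/kg, at 9.59 mg/kg, at 95.9 mg/kg and at 959 mg/kg. All values are log2 signals made by robust multi-array averaging (RMA), on which 1 unit is a doubling, and a probe set's level cannot be set against that of another probe set. Whether every array is a different rat is not stated in the labels, so p-values measure the spread between arrays, and the number of arrays limits the precision.

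The median signal of an array lay within 5.12 to 5.21. Replicate 6 at 0.1 mg/kg had the lowest estimated array weight (0.517) and stood farthest out on the first principal component. The hepatocyte markers Alb, Apoa1, Cps1, Serpina1 and Ttr (5 of 6 listed) averaged 14.1 to 14.2 in each dose group, against 14.2 in vehicle. None of the markers of hepatocytes, cholangiocytes, endothelium, macrophages, stellate cells or blood passed the test at 959 mg/kg, for the mean of the 3 upper doses, or along the dose series. Of all probe sets, 0.103%, 0.206% and 0.335% passed upward in these comparisons. With shares this low, 0 called markers is not a result about cell types. At 959 mg/kg 0 of 5 endothelium, 0 of 6 macrophage and 0 of 3 blood markers had a log2 fold change above 0. So did 4 of 5 stellate cell, 5 of 5 cholangiocyte and 3 of 5 hepatocyte markers, and 49.5% of all probe sets. The part of cell composition in the pump values was not tested. Unless stated, adjusted p-values are from limma with Benjamini-Hochberg adjustment over all 31042 probe sets, and a gene is called below 0.05.

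Abcc3 rose at the 3 upper doses, and it was the only one of the 7 genes called at any single dose. Its product, MRP3, exports glucuronides and bile salts across the basolateral membrane. In bulk liver, more cells of a type and more RNA per cell cannot be told apart. At 9.59 mg/kg the signal was 2.43-fold that of vehicle, with a 95% interval of 1.88 to 3.14. The fold was 2.12 at 95.9 mg/kg and 2.25 at 959 mg/kg. Abcc2, which encodes the canalicular pump MRP2 and carries bilirubin glucuronides and glutathione conjugates into bile, was called only for a straight line in dose rank. Abcc4, Abcc1, Abcc6, Abcb1a and Abcg2 were called in none of the comparisons with vehicle, by the F-test for any dose or along the dose series.

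The promoter window of Abcc2 is shown for the response element it holds, and the gene was chosen with its values known. It spans 250 bases before the gene's start and 50 after it, at chr1:252613625-252613924 on the plus strand of GRCr8, from RefSeq. RefSeq promoter windows were at hand for 6 of the 7 genes, the exception being Abcc3. The capitals mark an everted repeat, 2 half-sites AGTTCA that point away from each other with 8 bases between them, an arrangement known from this rat promoter as a response element for PXR, CAR and FXR.

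Abcc2: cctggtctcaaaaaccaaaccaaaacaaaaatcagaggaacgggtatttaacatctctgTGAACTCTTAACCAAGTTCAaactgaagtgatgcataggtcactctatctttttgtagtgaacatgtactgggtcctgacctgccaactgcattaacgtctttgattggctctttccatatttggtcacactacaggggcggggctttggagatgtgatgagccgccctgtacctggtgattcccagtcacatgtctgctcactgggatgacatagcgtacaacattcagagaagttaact

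The repeat runs from base -191 to base -172 relative to the start. Searched as TGAACT, any 8 bases and AGTTCA, which reads the same on both strands, it was found in 1 of 33469 promoter windows (0.00299%), the one shown. It was searched because it is known from this gene, so that share measures how rare these letters are and is no test. The half-site AGTTCA alone, on either strand, was in 14.5% of all windows. In the Abcc2 window it was found 2 times, both within the repeat, and in the windows of Abcc4, Abcc1, Abcc6, Abcb1a and Abcg2 0 times. The related half-site AGGTCA was found 2 times in the Abcc2 window, 0 times in the other 5, and in 16.2% of all windows. The AhR core GCGTG, held by 29.7% of all windows, was found 2 times for Abcc4 and once each for Abcc1 and Abcg2. The antioxidant core TGACNNNGC, held by 12.1%, was found once, for Abcc2. These are letter matches and say nothing of binding in these livers. Their part in the values of the pump genes was not tested.

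**Figure D1:**
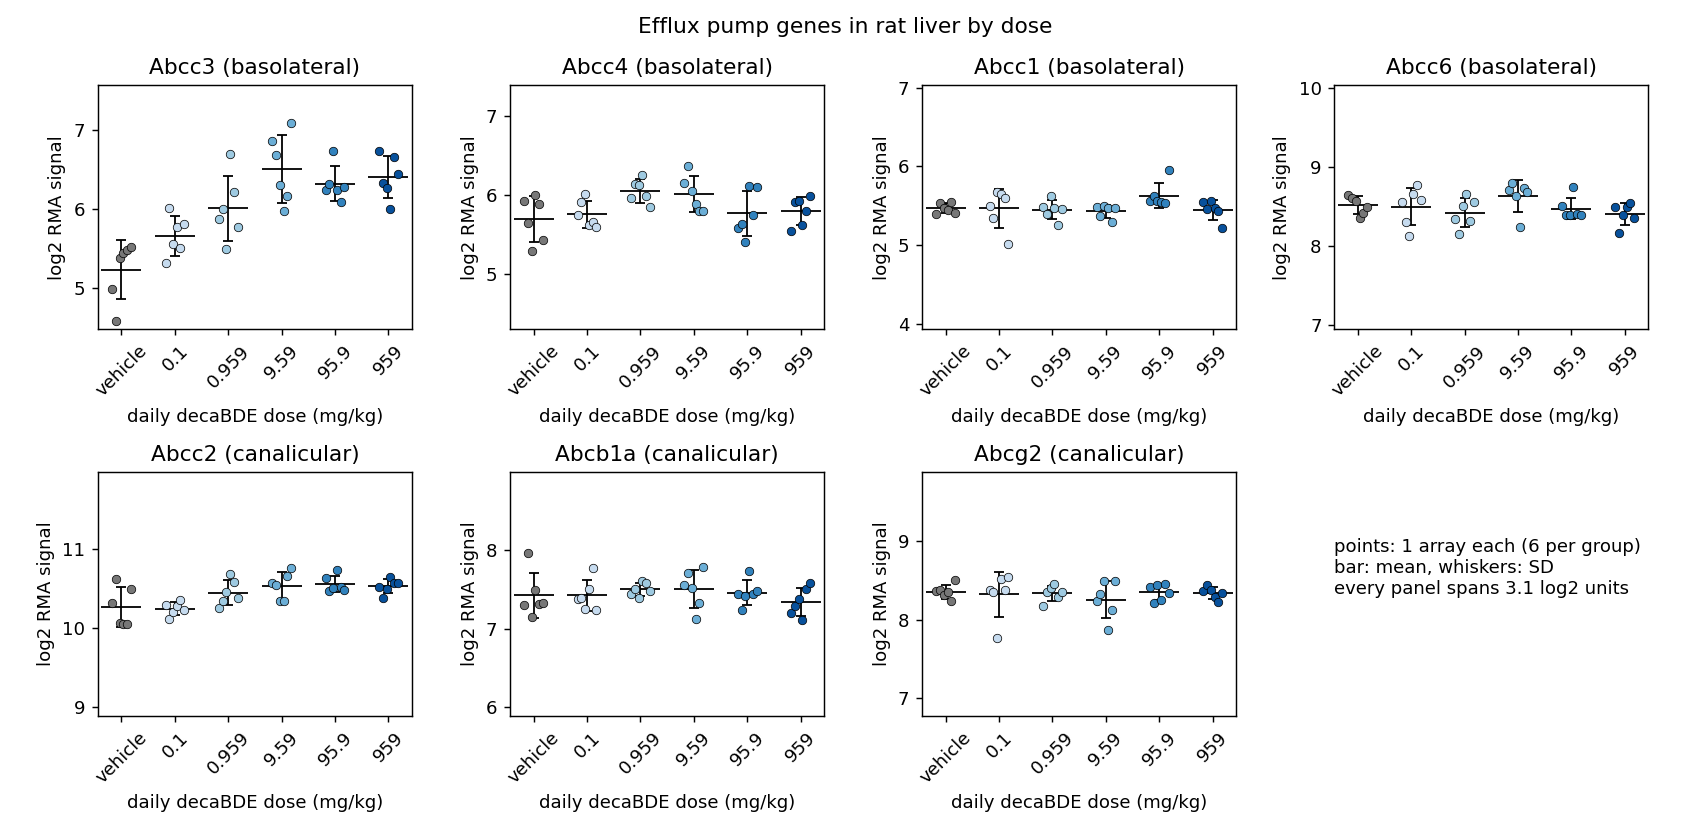
Log2 RMA signal of the 7 efflux pump genes by daily decaBDE dose in mg/kg, 1 point per array, with the mean and SD of the 6 arrays of each group. Every panel spans the same log2 range. Abcc3 lies above all vehicle arrays in every array at 9.59, 95.9 and 959 mg/kg, while every dosed group overlaps vehicle for the other 6 genes.

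The Abcc3 signal in vehicle ran from 4.58 through a median of 5.41 to 5.52. At 0.1 mg/kg it ran from 5.31 through 5.67 to 6.02, and at 0.959 mg/kg from 5.50 through 5.94 to 6.70. At 9.59 mg/kg it ran from 5.98 through 6.49 to 7.09. The lowest array at 9.59 mg/kg lay above the highest vehicle array, so these groups did not overlap. At 95.9 mg/kg the range was 6.09 to 6.74 with a median of 6.26, and at 959 mg/kg it was 6.00 to 6.74 with a median of 6.38. Both groups also lay wholly above vehicle. All 6 dosed arrays lay above all vehicle arrays in 0.435%, 0.332% and 0.283% of the probe sets tested at 9.59, 95.9 and 959 mg/kg. Vehicle replicates 1 and 2 were the low arrays of their group, at 4.99 and 4.58, and the other 4 vehicle arrays lay within 5.38 to 5.52.

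Abcc3 averaged 6.51 ± 0.430 at 9.59 mg/kg, against 5.23 ± 0.375 in vehicle (SD, n = 6 each). The log2 fold change was 1.28 (SE 0.183, adjusted p = 0.000126). It was 1.09 (SE 0.183, adjusted p = 0.00184) at 95.9 mg/kg and 1.17 (SE 0.183, adjusted p = 0.000551) at 959 mg/kg. Of the 7 genes, 1 was thus called up at each of these doses. Of all probe sets, 0.106%, 0.0838% and 0.103% were called up at 9.59, 95.9 and 959 mg/kg. The 7 genes were chosen with earlier results known, so this count is no test. By size of the rise, Abcc3 ranked 3, 7 and 8 among the 31042 probe sets at these doses. For the mean of the 3 doses the log2 fold change was 1.18 (SE 0.149, adjusted p = 7.3e-06), where 0.206% of probe sets were called up. The F-test for any dose also called Abcc3 (adjusted p = 0.000189) and no other pump gene, with 0.135% of probe sets called. Leaving out any 1 of the 36 arrays left Abcc3 called at each of the 3 doses.

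Below 9.59 mg/kg Abcc3 was not called. At 0.959 mg/kg it averaged 6.01 ± 0.415, against 5.23 ± 0.375 in vehicle (SD, n = 6 each), and 5 of 6 arrays lay above all vehicle arrays. The log2 fold change was 0.78 (SE 0.183, adjusted p = 0.259), where 0.029% of probe sets were called. At 0.1 mg/kg the value was 0.43 (SE 0.183, adjusted p = 1.00; unadjusted p = 0.0242), and 4 of 6 arrays lay above all vehicle arrays. limma called 0 of the 31042 probe sets at 0.1 mg/kg, while 3.79% had an unadjusted p under 0.05. Without replicate 6 at 0.1 mg/kg the log2 fold change of Abcc3 there was 0.40.

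Ordered by mean, the Abcc3 levels ran from vehicle (5.23) through 0.1 (5.66), 0.959 (6.01), 95.9 (6.32) and 959 (6.41) to 9.59 mg/kg (6.51). No neighbouring doses differed after adjustment. The step with the smallest p was 9.59 against 0.959 mg/kg, with a log2 difference of 0.50 (95% interval 0.13 to 0.87, adjusted p = 0.520). The difference was -0.19 (95% interval -0.56 to 0.18) for 95.9 against 9.59 mg/kg and 0.09 (-0.28 to 0.46) for 959 against 95.9 mg/kg. At the 4 steps between neighbouring doses, 0 of the 7 genes were called by limma, with 0.00322% to 0.00644% of probe sets called. An unadjusted p under 0.05 was found for 2 genes at the step to 0.959 mg/kg (Abcc4 and Abcc2, with 4.71% of all probe sets) and for 2 at the step to 9.59 mg/kg (Abcc3 and Abcc6, with 7.62%). It was found for Abcc1 at the step to 95.9 mg/kg (6.57% of all probe sets) and at the step to 959 mg/kg (4.78%).

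A straight line in dose rank, from 0 for vehicle to 5 for 959 mg/kg, called 2 of the 7 genes, both rising. Of all probe sets 0.335% were called up, and the count of 2 is no test of genes chosen with earlier results known. Abcc3 had a slope of 0.24 log2 units per dose rank (SE 0.0309, adjusted p = 1.01e-05). Abcc2 had a slope of 0.07 (SE 0.0148, adjusted p = 0.0236). Fitted against log10 of dose over the 5 dosed groups alone, without vehicle, neither gene was called. The slopes were then 0.18 log2 units per log10 unit of dose for Abcc3 (adjusted p = 0.0751) and 0.07 for Abcc2 (adjusted p = 0.263).

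**Figure D2:**
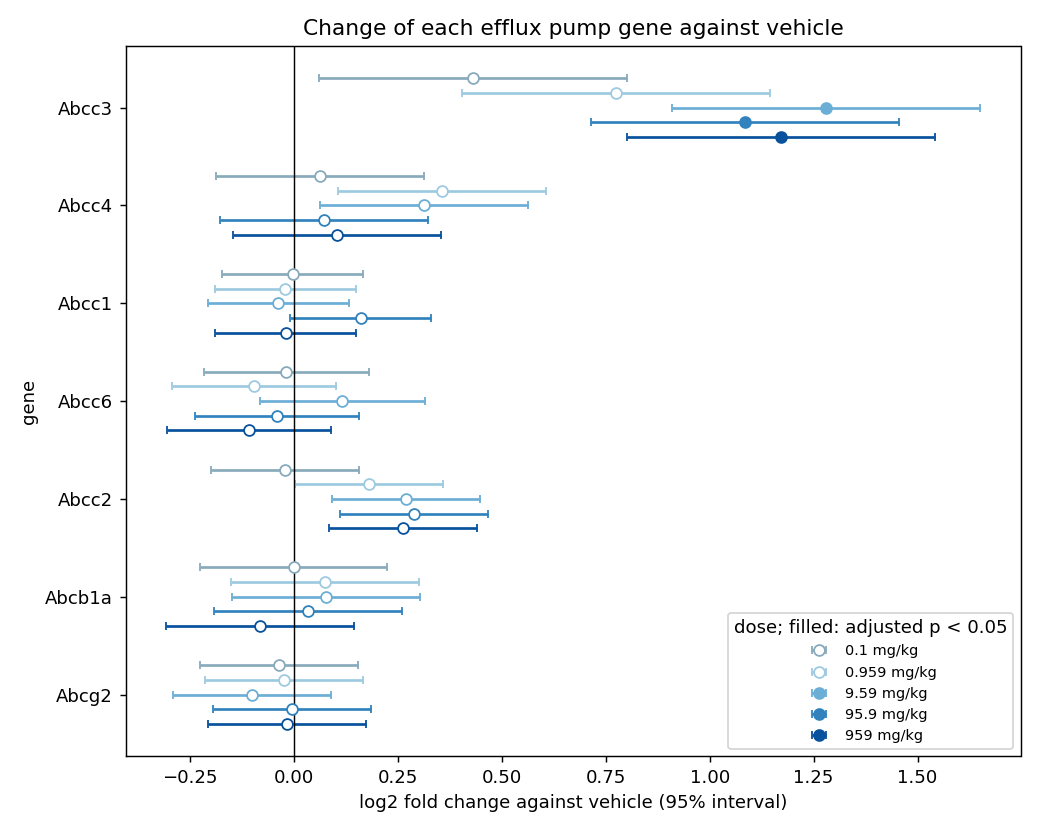
Log2 fold change of each pump gene against vehicle at each dose, with 95% intervals from limma. Filled points have an adjusted p below 0.05. The filled points are those of Abcc3 at 9.59, 95.9 and 959 mg/kg. Intervals also lie above 0, without a call, for Abcc3 at 0.1 and 0.959 mg/kg and for Abcc4 at 0.959 and 9.59 mg/kg. Those of Abcc2 do so at 0.959 mg/kg and the 3 upper doses.

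Abcc4 encodes MRP4, which exports bile salts and cyclic nucleotides across the basolateral membrane. It had its highest means at the middle doses and was not called. Its signal ran from 5.29 through a median of 5.76 to 6.00 in vehicle, from 5.60 through 5.70 to 6.01 at 0.1 mg/kg and from 5.85 through 6.06 to 6.25 at 0.959 mg/kg. It ran from 5.80 through 5.96 to 6.37 at 9.59 mg/kg, from 5.41 through 5.69 to 6.12 at 95.9 mg/kg and from 5.55 through 5.85 to 5.99 at 959 mg/kg. Every dosed group overlapped vehicle, and 3 of 6 arrays lay above all vehicle arrays at both 0.959 and 9.59 mg/kg. The log2 fold change was 0.36 (SE 0.123, unadjusted p = 0.00645, adjusted p = 0.756) at 0.959 mg/kg and 0.31 (unadjusted p = 0.0155, adjusted p = 0.452) at 9.59 mg/kg. At 959 mg/kg the log2 fold change was 0.10 (95% interval -0.15 to 0.35, adjusted p = 0.957).

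Abcc1 encodes MRP1, a broad exporter of glutathione conjugates. Its means lay between 5.43 and 5.63 in the dosed groups, against 5.47 in vehicle, and its SD was 0.0665 in vehicle. The highest group was 95.9 mg/kg, with a range of 5.54 to 5.96, and its log2 fold change was 0.16 (SE 0.0834, adjusted p = 0.734). There 4 of 6 arrays lay above all vehicle arrays. At 959 mg/kg the log2 fold change was -0.02 (95% interval -0.19 to 0.15).

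Abcc6 encodes MRP6, a liver pump through which hepatocytes release ATP and whose loss in humans leads to calcification of connective tissue. Its group means ran from 8.41 at 959 mg/kg to 8.63 at 9.59 mg/kg, with 8.51 in vehicle. The log2 fold change was -0.11 (95% interval -0.31 to 0.09, adjusted p = 0.920) at 959 mg/kg and 0.12 (-0.08 to 0.31, adjusted p = 0.784) at 9.59 mg/kg. All groups overlapped vehicle.

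Among the canalicular genes, the Abcc2 signal ran from 10.05 through a median of 10.18 to 10.62 in vehicle and from 10.11 through 10.25 to 10.36 at 0.1 mg/kg. At 0.959 mg/kg it ran from 10.25 through 10.42 to 10.68, and at 9.59 mg/kg from 10.34 through 10.55 to 10.76. It ran from 10.46 through 10.51 to 10.73 at 95.9 mg/kg and from 10.38 through 10.54 to 10.64 at 959 mg/kg. The medians at the 4 doses above 0.1 mg/kg were 10.42 or higher, but the groups overlapped vehicle, and vehicle replicates 2 and 6, at 10.62 and 10.49, lay among the dosed arrays. Abcc2 averaged 10.53 ± 0.0864 at 959 mg/kg, against 10.26 ± 0.252 in vehicle (SD, n = 6 each).

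The log2 fold change of Abcc2 was -0.02 (SE 0.0876, 95% interval -0.20 to 0.16) at 0.1 mg/kg, where its mean was 10.24 against 10.26 in vehicle and its median 10.25 against 10.18. It was 0.18 (SE 0.0876, adjusted p = 0.821) at 0.959 mg/kg and 0.27 (adjusted p = 0.324) at 9.59 mg/kg. The value was 0.29 (adjusted p = 0.360) at 95.9 mg/kg and 0.26 (95% interval 0.08 to 0.44, adjusted p = 0.523) at 959 mg/kg. For the mean of the 3 upper doses it was 0.27 (SE 0.0716, adjusted p = 0.132). Leaving out vehicle replicate 2 brought that comparison to 0.35 (adjusted p = 0.0187). The slope in dose rank lost its call without any 1 of 5 arrays, which were vehicle replicates 3, 4 and 5 and replicates 4 and 5 at 959 mg/kg, with adjusted p up to 0.0756.

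Abcb1a encodes a P-glycoprotein, which pumps bulky hydrophobic drugs. Its brightest probe set averaged 7.34 ± 0.180 at 959 mg/kg, against 7.42 ± 0.284 in vehicle (SD, n = 6 each), and vehicle replicate 2 reached 7.96. The log2 fold changes lay between -0.08 and 0.08 over the 5 doses, and at 959 mg/kg the 95% interval was -0.31 to 0.14. The other Abcb1a probe set had -0.01 at 959 mg/kg (95% interval -0.37 to 0.34) and -0.06 at 9.59 mg/kg, where the brightest had 0.08. A probe set assigned to 2 genes, Abcb1a and Abcb1b, had 0.10 at 959 mg/kg (adjusted p = 0.958).

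Abcg2 encodes BCRP, a half-size pump for sulfate conjugates and many drugs. It averaged 8.34 ± 0.0723 at 959 mg/kg, against 8.36 ± 0.0888 in vehicle (SD, n = 6 each). The log2 fold changes ran from -0.10 at 9.59 mg/kg to -0.01 at 95.9 mg/kg. At 959 mg/kg the 95% interval was -0.21 to 0.17.

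Set against each other within each array, the basolateral genes (the mean of Abcc3, Abcc4 and Abcc1) had larger log2 fold changes than the canalicular genes (the mean of Abcc2, Abcb1a and Abcg2). The genes of these means were chosen with earlier results known, so their differences are given with intervals and without p-values. Among these 6 genes membrane side went with signal level. In vehicle Abcc3, Abcc4 and Abcc1 averaged 5.23, 5.70 and 5.47, where array medians were 5.12 to 5.21. Abcc2, Abcb1a and Abcg2 averaged 10.26, 7.42 and 8.36. Abcc6, a basolateral gene outside these means, averaged 8.51. The part of signal level in the differences was not tested. The difference of log2 fold changes was 0.18 (95% interval -0.03 to 0.40) at 0.1 mg/kg, 0.29 (0.08 to 0.51) at 0.959 mg/kg and 0.44 (0.22 to 0.65) at 9.59 mg/kg. It was 0.33 (0.12 to 0.55) at 95.9 mg/kg and 0.36 (0.15 to 0.58) at 959 mg/kg. Centred on the vehicle mean, the within-array difference ran from 0.23 through a median of 0.40 to 0.47 at 959 mg/kg. In vehicle it ran from -0.52 through 0.04 to 0.32, and 4 of 6 arrays at 959 mg/kg lay above all vehicle arrays. The -0.52 was vehicle replicate 2, which also had the lowest Abcc3 and the highest Abcc2 and Abcb1a signals of its group.

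Abcc3 carried this difference. With Abcc3 left out of the basolateral mean, the difference was 0.06 (95% interval -0.18 to 0.29) at 9.59 mg/kg, 0.01 (-0.22 to 0.24) at 95.9 mg/kg and -0.01 (-0.25 to 0.22) at 959 mg/kg. Of the 9 pairs of a basolateral and a canalicular gene, 3 had an interval wholly above 0 at 959 mg/kg and all 3 were pairs of Abcc3. The intervals were not adjusted for the number of pairs. Abcc3 exceeded Abcc2 by 0.91 (95% interval 0.48 to 1.34), Abcb1a by 1.25 (0.82 to 1.69) and Abcg2 by 1.19 (0.80 to 1.58) in log2 fold change at that dose. Abcc1 lay below Abcc2 by -0.28 (-0.55 to -0.02), the one pair wholly below 0. At 9.59 mg/kg Abcc4 exceeded Abcg2 by 0.41 (0.06 to 0.77), and at 959 mg/kg by 0.12 (-0.24 to 0.48).

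**Figure D3:**
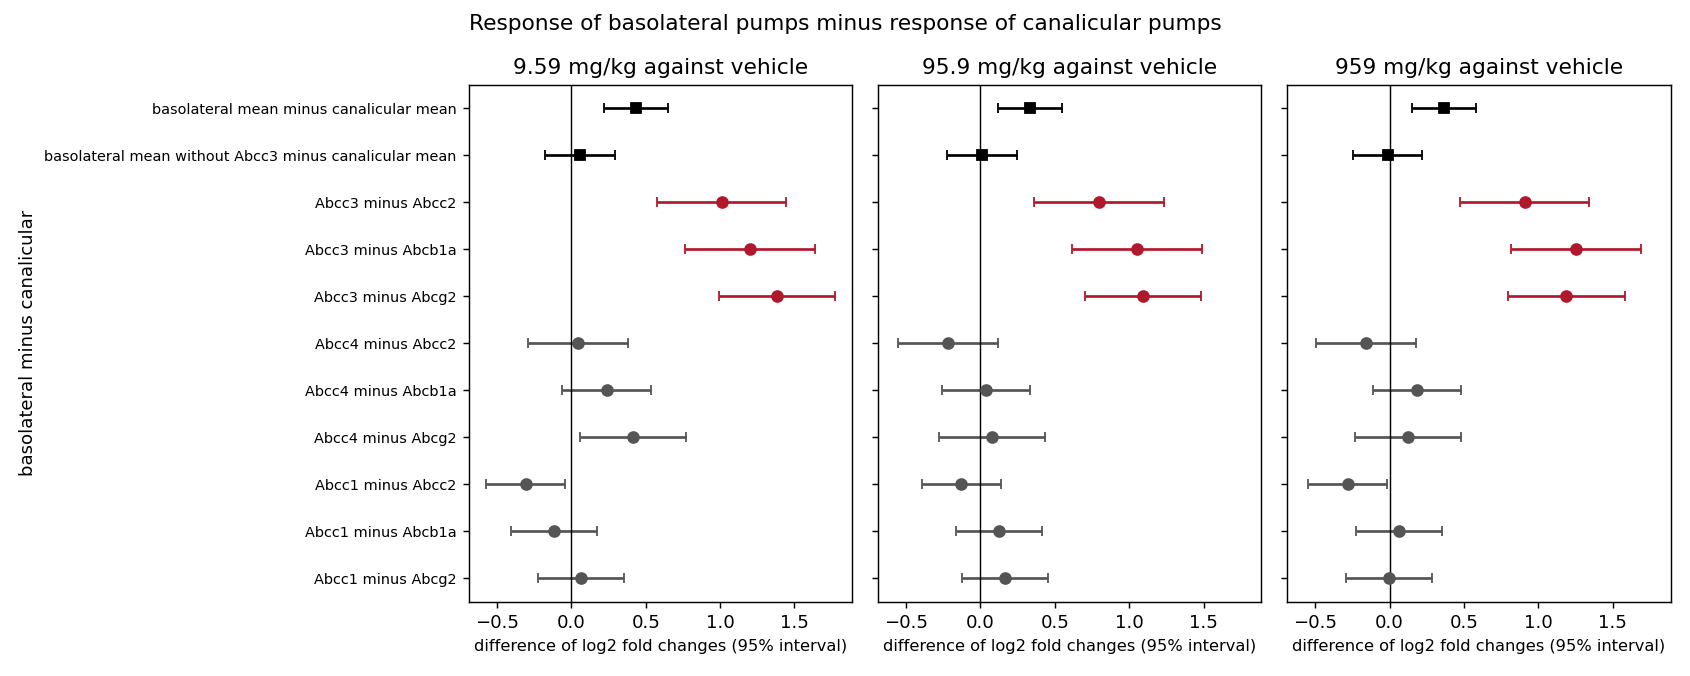
Difference of log2 fold changes against vehicle, basolateral minus canalicular, at the 3 upper doses, with 95% intervals from the spread of all 6 groups. Squares are means over 3 genes (or 2, without Abcc3) and circles are single pairs, those with Abcc3 in red. The 3 pairs with Abcc3 lie above 0 at each dose, and the mean without Abcc3 has an interval that spans 0.

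Differences within a membrane side were computed after the values were seen. At 959 mg/kg the log2 fold change of Abcc3 exceeded that of Abcc4 by 1.07 (95% interval 0.59 to 1.54), of Abcc1 by 1.19 (0.73 to 1.65) and of Abcc6 by 1.28 (0.85 to 1.71). At 0.959 mg/kg the difference from Abcc4 was 0.42 (-0.06 to 0.89). On the canalicular side, Abcc2 exceeded Abcb1a by 0.34 (0.14 to 0.55) and Abcg2 by 0.28 (0.05 to 0.51) at 959 mg/kg.

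The pumps also varied between arrays of the same group. Over all 36 arrays Abcc3 and Abcc2 had a Pearson's r of 0.525, and of 0.0226 once group means were subtracted. Within groups the highest correlations among the 7 genes were those of Abcc2 with Abcc6 (0.569) and with Abcb1a (0.555), and that of Abcc6 with Abcg2 was 0.474. These are descriptions over arrays that share their normalization.

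By the correlation over 36 arrays, the genes most like Abcc3 were Ephx1 (r = 0.807), Ugt2b1 (0.798), Ces2c (0.790), Aldh1a1 (0.787) and Zwint (0.780). Ephx1 is the microsomal epoxide hydrolase, Ugt2b1 a glucuronosyltransferase, Ces2c a carboxylesterase, Aldh1a1 an aldehyde dehydrogenase and Zwint a kinetochore protein gene. With group means subtracted, the r of these genes with Abcc3 was 0.463, 0.298, 0.301, 0.502 and 0.439. Ephx1 was also the gene most like Abcc2 (r = 0.739), followed by Ddc, an amino acid decarboxylase gene (0.724). The genes most like the remaining pumps were Dhx30 for Abcc4 (r = 0.741), Phldb2 for Abcc1 (0.675), Ddi2 for Abcc6 (0.820), Setdb1 for Abcb1a (0.694) and Psip1 for Abcg2 (0.675).

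Most of the listed genes of drug metabolism that CAR, PXR or AhR control rose at 1 or more doses. The list was drawn up with earlier results of these data known, so its counts describe these genes and are no test. Of the 11 listed, 0 were called up at 0.1 mg/kg, 3 at 0.959 mg/kg, 7 at 9.59 mg/kg, 6 at 95.9 mg/kg and 9 at 959 mg/kg. Of all probe sets, 0%, 0.029%, 0.106%, 0.0838% and 0.103% were called up at these doses. The median log2 fold change of the list at 959 mg/kg was 0.58, against -0.00 over all probe sets. The log2 fold change of Ephx1 was 0.40 (SE 0.0702, adjusted p = 0.00466) and that of Aldh1a1 0.47 (SE 0.0900, adjusted p = 0.0116) at 9.59 mg/kg. Ephx1 had 0.39 at 959 mg/kg, Aldh1a1 0.33 (adjusted p = 0.253) and Gstm1, a glutathione S-transferase, 0.28 (adjusted p = 0.0434). The AhR target Cyp1a2 had 0.06 (adjusted p = 0.802) at 9.59 mg/kg and 0.53 (adjusted p = 1.06e-07) at 959 mg/kg. Cyp3a23-3a1, Cyp2c6v1, Ugt2b1, Ces2c and Por were called at 9.59 and 959 mg/kg, and Cyp1a1 at 95.9 and 959 mg/kg but not at 9.59 mg/kg, where it had 0.00 (adjusted p = 0.999). Gsta3, another glutathione S-transferase, was called in none of the comparisons with vehicle or along the dose series, with 0.63 (SE 0.231, adjusted p = 0.646) at 959 mg/kg. Any part of CAR, PXR or AhR in the Abcc3 values was not tested.

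**Figure D4:**
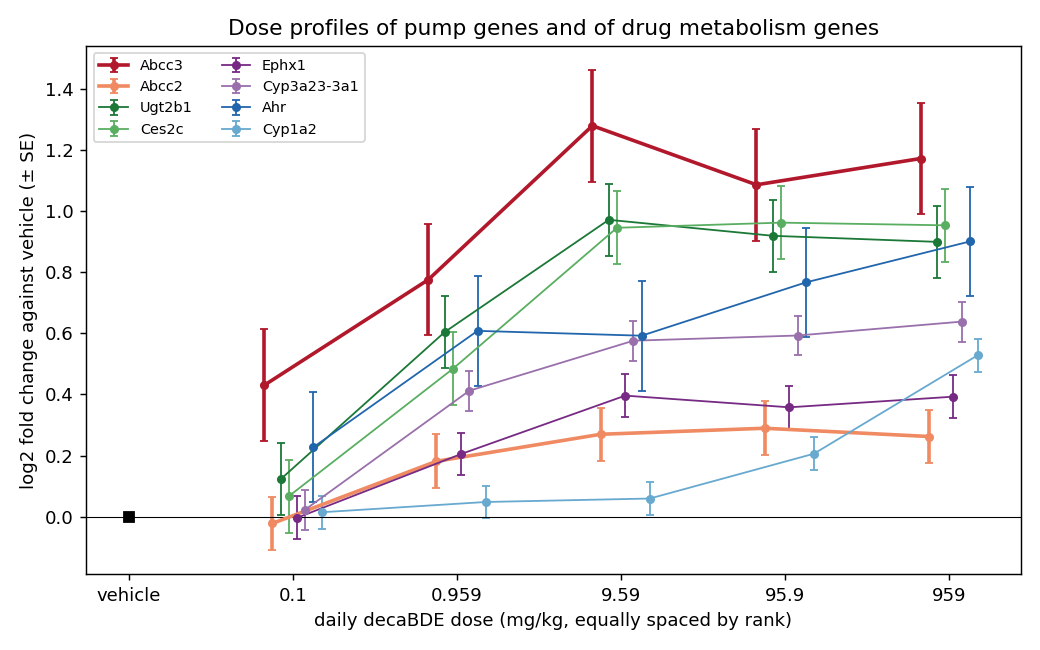
Log2 fold change against vehicle, with the standard error, for Abcc3, Abcc2 and 6 genes of drug metabolism or its control, over the 5 doses in order of rank. Abcc3 is at 1.28 at 9.59 mg/kg and 1.17 at 959 mg/kg, Ces2c at 0.95 at both, and Cyp1a2 at 0.06 and 0.53. Shared control of these genes was not tested.

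Of the other efflux genes listed, 14 of 17 were measured, with a median log2 fold change of -0.04 at 959 mg/kg. At any single dose 0 of these 14 were called, where at most 0.106% of all probe sets were called up. One fell along the dose series. This was Abcb4, the canalicular phospholipid flippase, with -0.06 per dose rank (SE 0.0149, adjusted p = 0.0317), where 0.058% of probe sets were called down, and a log2 fold change of -0.28 (adjusted p = 0.434) at 959 mg/kg. Abcb11, the bile salt export pump, had -0.03 (SE 0.0721, adjusted p = 0.979).

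Among 10 of 11 listed regulators measured, Ahr, which encodes AhR itself, was the only one called. Its log2 fold change at 959 mg/kg was 0.90 (SE 0.180, adjusted p = 0.0191), and its slope was 0.17 per dose rank (adjusted p = 0.00144). At 959 mg/kg and along the dose series, 0.103% and 0.335% of all probe sets were called up. Nr1i2, which encodes PXR, had -0.01 (SE 0.0675), and Nr1i3, which encodes CAR, 0.42 (SE 0.186, adjusted p = 0.782) at 959 mg/kg. Of 7 NRF2 targets 0 were called at any dose, where at most 0.106% of all probe sets were called up. Nqo1, a quinone reductase gene, had 0.98 (adjusted p = 0.0575) at 959 mg/kg and rose along the dose series by 0.17 per rank (adjusted p = 0.0174). None of 5 measured membrane scaffold genes, which anchor transporters, was called, and Ezr, Nherf1 and Msn had 0.18, 0.02 and 0.01 at 959 mg/kg. With shares of called probe sets this low, 0 called genes in lists of this size is not a result about them.

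Abcc3 is also expressed in cholangiocytes, the cells that line bile ducts. Their markers Krt19, Krt7, Epcam, Spp1 and Cftr (5 of 6 listed) averaged 5.66 (5.27 to 6.12) at 959 mg/kg, 5.58 (5.47 to 5.74) at 95.9 mg/kg and 5.40 (5.11 to 5.55) at 9.59 mg/kg, against 5.35 (5.12 to 5.72) in vehicle. At 9.59 mg/kg, where Abcc3 was highest, the log2 fold change was 0.32 for Epcam (SE 0.123, unadjusted p = 0.0141, adjusted p = 0.443), 0.06 for Krt19, -0.00 for Cftr, -0.05 for Krt7 and -0.07 for Spp1. At 95.9 mg/kg it was 0.48 for Krt19, 0.29 for Epcam, 0.18 for Krt7, 0.14 for Spp1 and 0.04 for Cftr. All 5 were above 0 at 959 mg/kg, with 0.59 for Krt19, 0.33 for Krt7, 0.28 for Epcam, 0.23 for Spp1 and 0.10 for Cftr. None of these values was called, and their part in the Abcc3 values was not tested. Macrophage markers, 6 of 7 measured, averaged 7.99 to 8.29 in the dosed groups, against 8.49 in vehicle. RNA quality was read from the actin probe sets, whose 3' signal exceeded the 5' signal by a mean of 1.16 (1.10 to 1.22) in vehicle. The mean excess was 1.24 (1.09 to 1.46) at 0.1 mg/kg and 1.23 (1.10 to 1.42) at 0.959 mg/kg. At 9.59, 95.9 and 959 mg/kg it was 1.20, 1.17 and 1.14. The part of this excess in the pump values was not tested.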

How the data were processed

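Liver RNA was measured on 36 Affymetrix 3' expression arrays. The deposited values are log2 RMA signals per probe set, and RMA and the affy package are named, without versions, in the submitters' processing notes. The genome build is not given in the sources used here. RNA had an integrity number of at least 7.0, per the labels' protocols. Groups and replicate numbers came from sample titles, and all 36 columns were used.

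After removal of 57 array controls, 31042 of 31099 probe sets were tested. limma 3.58.1 in R 4.3.3 (lmFit with a mean for every group, then eBayes; degrees of freedom 30 residual, 5.12 prior) gave two-sided contrasts of each dose with vehicle, the mean of the 3 upper doses with vehicle, neighbouring doses and a line in dose rank, plus an F-test. The design text names maanova, which was not at hand. Probe sets carried 1 symbol (20826), several (436) or none (9780). Within-array differences between genes used the spread pooled over 6 groups, with 95% intervals. Named genes were the 7 members, called members of 5 lists, or else the 3 with the smallest trend p, and up to 5 genes most correlated with a called member or 2 with any other. Abcb11, Abcg5, Abcg8, Nr1i2, Nr1i3, Gsta3 and the cholangiocyte markers were named outside this rule, after their values were seen. Members and lists were chosen with earlier results of these data known. The fit was tested on simulated data.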

Additional observations from a re-analysis of the deposited data

Results flagged for a closer look

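In 6 of 42 sets of 6 arrays (7 genes in 6 groups), 1 array lay far from the other 5 by Dixon's test at 95%, where chance flags about 1 set in 20. Abcc3 was 6.74 in replicate 3 at 95.9 mg/kg, above 6.09 to 6.32 in the other arrays of that group. Abcc1 was 5.96 in replicate 6 at 95.9 mg/kg, above 5.54 to 5.62, and this is the group with the highest Abcc1 mean. It was 5.22 in replicate 6 at 959 mg/kg, below 5.44 to 5.56. Abcc6 was 8.24 in replicate 4 at 9.59 mg/kg, below 8.63 to 8.80, and 8.74 in replicate 4 at 95.9 mg/kg, above 8.39 to 8.51. Abcg2 was 7.77 in replicate 3 at 0.1 mg/kg, below 8.35 to 8.53.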

How the results depend on the processing

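Counts of called pump genes at each single dose, by the F-test and at neighbouring dose steps were the same under every alternative run: another quantile normalization, median centring, dim probe sets left out, only the brightest probe set per gene, the other Abcb1a probe set, gene-wise variances without moderation, a robust fit with a variance trend, weighted arrays, only the compared groups (not run for the F-test), and any 1 array left out. With the replicate block, Abcc3 stayed the 1 gene called at 9.59, 95.9 and 959 mg/kg. The main fit did not treat arrays as paired by number. Deviations from group means correlated at -0.239 to 0.155 between same-numbered dosed and vehicle arrays, and above 0.1 in 1 of 30 pairs. Dosed groups were not compared with each other in this way, so a batch shared by replicate number was not tested. The count for the mean of the 3 upper doses was 1 to 2 with 1 array left out, and that for the line in dose rank 1 to 2. On log10 of dose without vehicle the line called 0. The basolateral minus canalicular difference at 959 mg/kg was 0.26 to 0.43 with 1 array left out and -0.013 without Abcc3. Single values that changed sign were near 0 and not called, and the cause was not tested. After a further quantile normalization, Abcc1 had 0.0045 at 0.1 mg/kg, Abcb1a had 0.0077 at 0.1 mg/kg and Abcb1a had -0.00017 for the mean of the 3 upper doses. With median centring, Abcc1 had 0.0012 at 0.1 mg/kg, Abcb1a had 0.0034 at 0.1 mg/kg, Abcg2 had 0.011 at 95.9 mg/kg, Abcc6 had 0.0044 for the mean of the 3 upper doses and Abcg2 had 0.00040 per dose rank. With the other probe set, Abcb1a had -0.065 at 9.59 mg/kg and -0.0093 for the mean of the 3 upper doses. With array weights, Abcc1 had 0.031 at 0.1 mg/kg, Abcb1a had 0.00041 at 0.1 mg/kg and Abcc6 had 0.0019 for the mean of the 3 upper doses. Per log10 unit of dose without vehicle, Abcc4 had -0.021 and Abcg2 had 0.0055. With 1 array left out, the ranges that crossed 0 at 0.1 mg/kg were -0.019 to 0.12 for Abcc4, -0.045 to 0.086 for Abcc1, -0.072 to 0.057 for Abcc6, -0.065 to 0.049 for Abcc2, -0.070 to 0.11 for Abcb1a, -0.078 to 0.075 for Abcg2. At 0.959 mg/kg they were -0.055 to 0.018 for Abcc1, -0.048 to 0.0092 for Abcg2. At 95.9 mg/kg they were -0.0093 to 0.14 for Abcc4, -0.020 to 0.14 for Abcb1a, -0.030 to 0.024 for Abcg2. At 959 mg/kg they were -0.041 to 0.027 for Abcc1, -0.14 to 0.026 for Abcb1a, -0.042 to 0.012 for Abcg2. For the mean of the 3 upper doses they were -0.043 to 0.015 for Abcc6, -0.044 to 0.12 for Abcb1a. Per dose rank they were -0.016 to 0.0068 for Abcb1a, -0.012 to 0.0022 for Abcg2.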
